A study of Homo sapiens with 2 samples.

Results

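YAP1, its paralogue WWTR1, 3 TEAD transcription factors and 5 genes that they are known to activate were followed in human embryonic stem cells with and without ZNF263. These 10 genes were taken by symbol from a published pathway, out of 33592 genes listed in either library, and all 10 were found and had UMIs in both libraries. H1 (WA01) is an established line of human embryonic stem cells. One library was made from wild-type (WT) cells and 1 from cells homozygous for a ZNF263 deletion (KO) made with Cas9. The labels give no culture, passage or further clone for either genotype, so a difference between genotypes cannot be told apart from one between 2 cultures, clones or libraries. There are no replicates and no test was made. Intervals are exact 95% intervals that cover counting error only.

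YAP1 and WWTR1 (TAZ) are coactivators that bind no DNA themselves. When the Hippo kinases LATS1 and LATS2 are inactive, as in spread or mechanically stretched cells, they enter the nucleus and bind TEAD proteins at target promoters and enhancers. ANKRD1, CCN1 (CYR61) and CCN2 (CTGF) are the targets most often used to read the pathway, and AMOTL2 and LATS2 are targets that feed back to restrain it. In human pluripotent stem cells this pathway is known for its part in the survival and lineage choice of dissociated and replated cells.

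The unit of measurement was the unique molecular identifier (UMI), which counts captured transcripts. A barcode counted as a cell when it held 1000 UMIs or more from 500 genes or more, with no more than 20% of its UMIs mitochondrially encoded (2935 WT, 2286 KO). Barcodes with 250 to just under 1000 UMIs are called shallow barcodes (56837 WT, 50551 KO). Median depth was 1328 UMIs in WT and 1289.5 in KO cells, and 367 and 366 in shallow barcodes. Levels are UMIs summed over all barcodes of a class, per 1000000 UMIs (CPM), so fewer cells of a type and less RNA per cell cannot be told apart. The shallow barcodes come from the same libraries and are not replicates of the cells. Of the barcodes, 20 were cells in both libraries and 4665 were shallow in both (8.21% of WT, 9.23% of KO). ZNF263 itself, the deleted gene, was at 17.8 CPM in WT and 7.57 CPM in KO cells, and at 15.6 and 8.54 CPM in shallow barcodes. Which part of ZNF263 was deleted is not given in the sources used here, and reads of TIGD7, which overlaps it, could enter its count. All 12 pluripotency markers checked, such as POU5F1, NANOG and SOX2, were measured in both libraries. POU5F1, TDGF1, DNMT3B and PRDM14 were at least 1.5-fold higher in KO in both barcode classes, and the median log2 ratio of the list was 0.22 in cells and 0.26 in shallow barcodes. POU5F1 has pseudogenes that could share its reads. Over all genes 3.94% were that much higher in cells and 2.79% in shallow barcodes. The 8 fibroblast markers summed to 313 CPM in WT and 422 CPM in KO cells. Of the 3 with a mean of at least 5 CPM, COL1A1 was more than 1.5-fold higher in KO cells (13.5 and 23.8 CPM), while DCN was at 0 in the cells of both libraries and COL3A1 at 0 in KO cells. The part of either list in the results below was not tested.

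Promoter sequence is shown first because 2 of the target genes whose levels diverged, CCN2 and ANKRD1, both carry the TEAD core motif close to their start. The letters searched were GGAATG on the gene's strand and CATTCC for the other strand, in the 250 bases upstream of each RefSeq transcript start (build GRCh38.p14). Windows were found for 7 of the 10 genes (10 windows, since AMOTL2, WWTR1 and TEAD2 have 2 starts each). TEAD1, TEAD4 and CCN1 had no entry. The 3 sequences below read 5′ to 3′ on the gene's strand up to the base before the start, with each match in capitals. CCN2 (chr6:131951373-131951622, minus strand) has 3 matches, ANKRD1 (chr10:90921088-90921337, minus strand) has 2, and YAP1 (chr11:102110197-102110446, plus strand) has 1.
CCN2: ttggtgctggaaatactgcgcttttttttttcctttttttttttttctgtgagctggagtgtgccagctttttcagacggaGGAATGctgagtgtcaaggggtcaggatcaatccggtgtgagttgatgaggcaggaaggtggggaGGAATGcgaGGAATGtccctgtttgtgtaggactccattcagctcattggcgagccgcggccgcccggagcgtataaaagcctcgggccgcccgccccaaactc
ANKRD1: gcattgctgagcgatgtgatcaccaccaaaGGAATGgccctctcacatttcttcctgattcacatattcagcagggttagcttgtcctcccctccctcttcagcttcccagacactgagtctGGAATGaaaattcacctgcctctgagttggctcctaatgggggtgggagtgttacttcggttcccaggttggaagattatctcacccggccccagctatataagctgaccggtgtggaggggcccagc
YAP1: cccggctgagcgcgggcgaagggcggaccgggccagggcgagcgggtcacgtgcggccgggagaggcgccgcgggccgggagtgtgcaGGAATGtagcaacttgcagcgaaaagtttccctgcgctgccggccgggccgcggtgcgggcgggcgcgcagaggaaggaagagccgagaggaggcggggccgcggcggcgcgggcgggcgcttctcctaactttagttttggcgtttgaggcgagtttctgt

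The CCN2 matches begin 169, 104 and 95 bases upstream of the start, and those of ANKRD1 220 and 128 bases upstream. A match on the opposite strand lies 69 to 64 bases before the second AMOTL2 start. The windows of WWTR1, LATS2 and TEAD2 and the other AMOTL2 window hold none. Of all 35116 RefSeq windows of this length, 11.9% hold at least 1 match, 0.940% at least 2 and 0.0826% at least 3. The letters GGAGGA (or TCCTCC), which resemble the G-rich repeats bound by ZNF263, were also searched. They occur in 31.8% of all windows, at least 2 times in 9.09% and at least 3 times in 2.92%. There were 6 matches in 1 WWTR1 window, 4 in the second AMOTL2 window, 2 in CCN2, and 1 each in ANKRD1, LATS2 and 1 TEAD2 window. Apart from the match that begins 223 bases upstream, the WWTR1 matches overlap each other in a single run from 143 to 126 bases upstream. Both CCN2 matches overlap a TEAD match by 3 bases. The CArG box, the site of serum response factor, was in none of the 10 windows and in 1.16% of all windows. A match describes these letters and shows no binding.

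**Figure D1:**
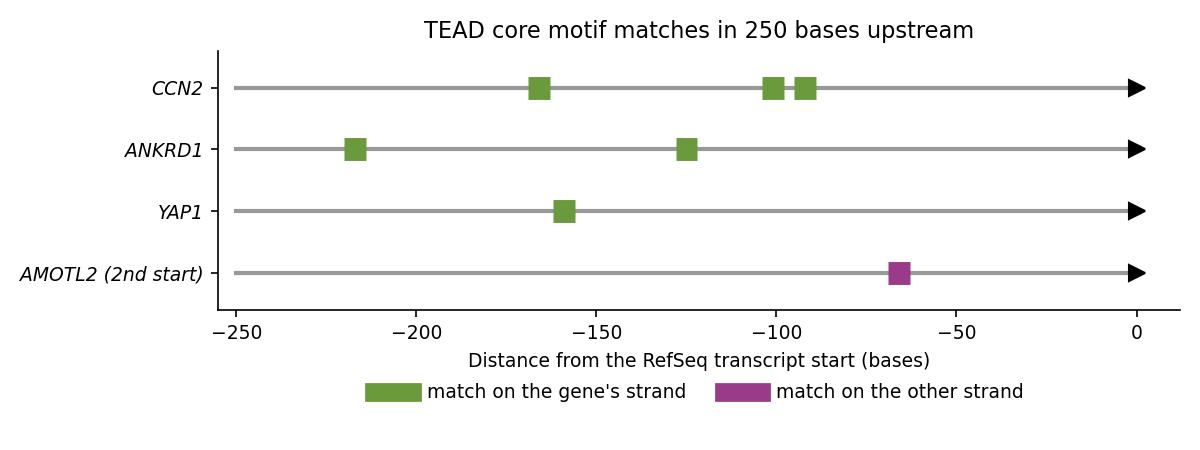
Positions of the TEAD core motif in the 250 bases upstream of 4 genes; the x axis is distance from the RefSeq transcript start in bases, the arrowhead is the start, and colour gives the strand of the match. CCN2 has 3 matches and ANKRD1 has 2, all on the gene's strand, and YAP1 and the second AMOTL2 start have 1 each.

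Across the 10 genes, TEAD1, CCN2 and AMOTL2 were lower in KO by at least 1.5-fold in both barcode classes, while ANKRD1 and CCN1 were not. In cells 4 of the 10 genes were at least 1.5-fold lower in KO (TEAD1, CCN2, AMOTL2 and LATS2) and 0 were that much higher. Over the 10129 genes whose mean reached 5 CPM, 13.0% were lower in KO and 3.94% higher by this fold. In shallow barcodes 4 of the 10 were again lower (WWTR1, TEAD1, CCN2 and AMOTL2) and 0 higher, beside 10.1% and 2.79% of 10148 genes. On the log2 scale the KO over WT ratio had a median of -0.38 over the 10 genes in both classes, beside -0.14 for all genes in cells and -0.15 in shallow barcodes. Scaling to the median gene moves every log2 ratio up by 0.12 in both classes and leaves 3 genes lower by 1.5-fold in each, without LATS2 in cells and without WWTR1 in shallow barcodes.

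**Figure D2:**
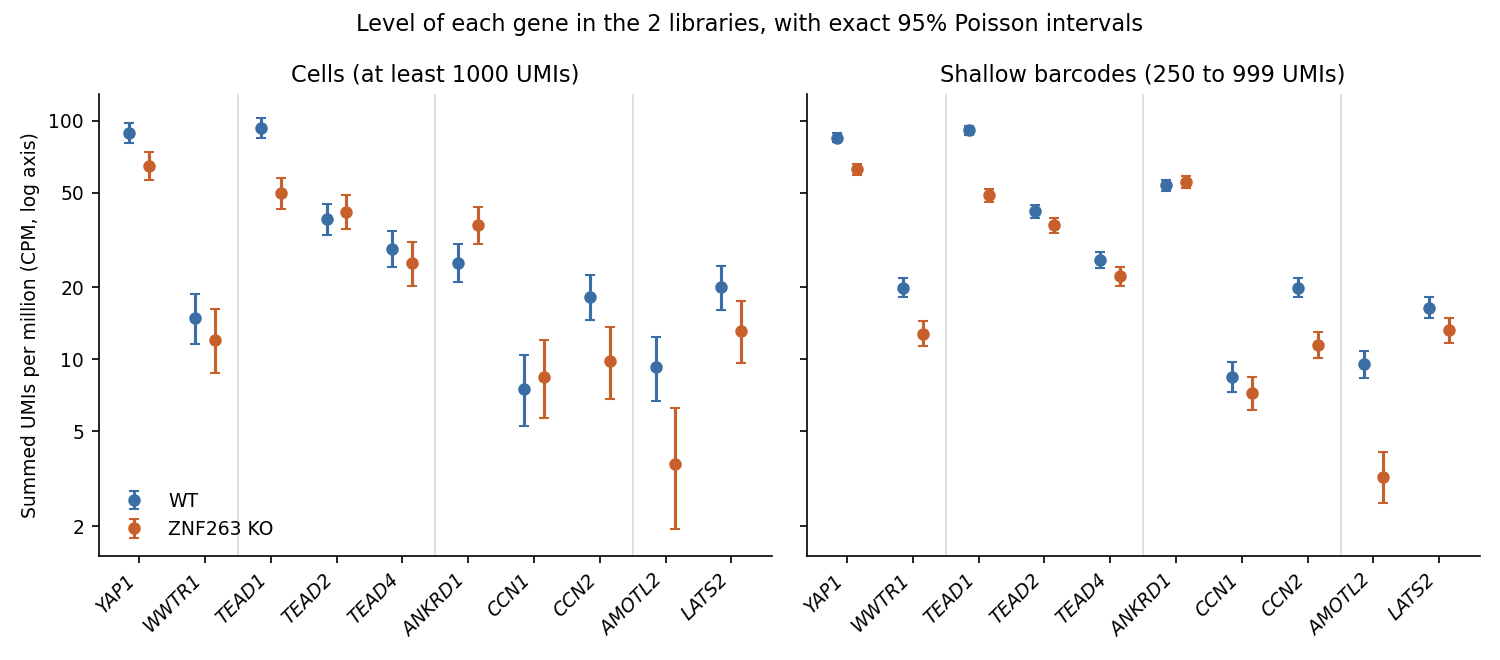
Level of each of the 10 genes (CPM of summed UMIs, log axis) in WT (blue) and ZNF263 KO (orange), in cells (left) and shallow barcodes (right); points are the 1 library of each genotype and bars are exact 95% Poisson intervals. TEAD1 and AMOTL2 are lower in KO with intervals apart in both panels, and ANKRD1 is not lower in either.

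YAP1 (chr11:102110447-102233424) was at 89.0 CPM in WT cells (414 UMIs) and 64.7 CPM in KO cells (231 UMIs), a log2 ratio of -0.46 (interval -0.70 to -0.22). In shallow barcodes it was at 84.8 and 62.6 CPM, a log2 ratio of -0.44 (-0.54 to -0.34). The 2 classes thus gave nearly the same ratio, and YAP1 was lower in KO in 6 of 6 bands of barcode depth from 10 UMIs upward, by 1.31- to 1.49-fold.

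WWTR1 (chr3:149517235-149724788), the paralogue of YAP1, was at 14.8 CPM in WT cells (69 UMIs) and 12.1 CPM in KO cells (43 UMIs), with an interval of the log2 ratio from -0.88 to 0.27 that includes 0. In shallow barcodes, with more UMIs, it was at 19.97 CPM in WT and 12.8 CPM in KO, which is 1.56-fold lower. Without the barcodes that are shallow in both libraries this log2 ratio was -0.54, inside 1.5-fold. The ratio of YAP1 to WWTR1 within a library did not differ beyond counting error between genotypes in either class (shallow log2 difference 0.20, interval -0.04 to 0.45).

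TEAD1 (chr11:12674421-12944737) encodes a DNA-binding partner of YAP1. It was at 93.1 CPM in WT cells (433 UMIs) and 49.9 CPM in KO cells (178 UMIs), 1.87-fold lower (1.56 to 2.23). Shallow barcodes gave 91.1 CPM (2166 UMIs) and 48.7 CPM (1027 UMIs), again 1.87-fold lower. TEAD1 was lower by at least 1.5-fold in 6 of 6 depth bands, with folds from 1.60 to 2.09. It was also lower in each of the 4 bands of mitochondrial share up to 20%, in both classes, at log2 ratios between -0.70 and -0.98, with intervals that include 0 in the band from 10 to 20%.

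TEAD2 and TEAD4, which bind the same motif, did not share this difference. TEAD2 (chr19:49340595-49362416) was at 38.7 CPM in WT and 41.5 CPM in KO cells, and at 41.7 and 36.5 CPM in shallow barcodes. It overlaps CD37 and DKKL1, to which 157 UMIs were assigned, so some of its reads could be theirs. TEAD4 (chr12:2959397-3040676), the trophectoderm-determining member of the family, was at 29.0 CPM in WT and 25.2 CPM in KO cells, and at 26.1 and 22.3 CPM in shallow barcodes. TEAD3 is not among the 10 genes and had only 23 WT and 15 KO UMIs in cells. The UMI ratio of TEAD1 to TEAD2 was 2.41 in WT and 1.20 in KO cells, and 2.18 and 1.33 in shallow barcodes. That of TEAD1 to TEAD4 was 3.21 and 1.98 in cells and 3.49 and 2.18 in shallow barcodes. These ratios need no scaling between libraries, and their intervals of change lie below 0 on the log2 scale in both classes (TEAD1 to TEAD4, -1.17 to -0.22 in cells and -0.88 to -0.47 in shallow barcodes). The ratio of TEAD2 to TEAD4 changed by 0.03 on the log2 scale in shallow barcodes (-0.19 to 0.26).

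CCN2 (chr6:131948176-131951372) encodes a secreted matricellular protein. It was at 18.3 CPM in WT cells (85 UMIs) and 9.81 CPM in KO cells (35 UMIs), 1.86-fold lower. In shallow barcodes it was at 19.97 CPM (475 UMIs) and 11.5 CPM (243 UMIs), 1.73-fold lower. The KO value was below the WT value in 6 of 6 depth bands and by at least 1.5-fold in 5; the exception was the deepest band, at 16.3 and 12.9 CPM on 24 and 14 UMIs.

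CCN1 (chr1:85580761-85583950), its closest paralogue in this set, was at 7.53 CPM in WT (35 UMIs) and 8.41 CPM in KO cells (30 UMIs), and at 8.45 and 7.21 CPM in shallow barcodes. Both intervals of its log2 ratio include 0, and it was lower in 3 depth bands and higher in 3. The ratio of CCN2 to CCN1 was 2.43 in WT and 1.17 in KO cells, and 2.36 and 1.60 in shallow barcodes, with intervals of the log2 change below 0 in both (-2.03 to -0.08 and -0.95 to -0.17).

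ANKRD1 (chr10:90912096-90921087) encodes the cardiac ankyrin repeat protein, a stretch-responsive regulator in muscle. It was at 25.4 CPM in WT cells (118 UMIs) and 36.4 CPM in KO cells (130 UMIs), a log2 ratio of 0.52 (0.15 to 0.89). In shallow barcodes it was at 53.6 CPM (1274 UMIs) and 55.5 CPM (1170 UMIs), a log2 ratio of 0.05 (-0.06 to 0.17). The direction in cells was therefore not seen beyond counting error in the larger class, although the KO value was nominally above the WT value in 6 of 6 depth bands. These intervals treat each UMI as independent, so they can be too narrow where 1 barcode holds several. A single KO cell held 13 ANKRD1 UMIs, and without the cell with the most ANKRD1 UMIs in each library the log2 ratio in cells was 0.43 (0.05 to 0.82). Without cells that had a UMI of a neuroectoderm or primitive streak marker it was 0.34, with an interval from -0.09 to 0.78.

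Against ANKRD1, both CCN2 and AMOTL2 were lower in KO. The UMI ratio of CCN2 to ANKRD1 was 0.72 in WT and 0.27 in KO cells, and 0.37 and 0.21 in shallow barcodes, a log2 change of -1.42 (-2.14 to -0.71) and -0.84 (-1.10 to -0.59). Among genes with a promoter window, the 2 with the most TEAD motif matches thus differed from each other in how they changed, on a comparison that no scaling between libraries can move.

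AMOTL2 (chr3:134355345-134375417), an angiomotin-family protein that tethers YAP1 at cell junctions, showed the lowest KO level relative to WT of the 10 genes. It was at 9.25 CPM in WT cells (43 UMIs) and 3.64 CPM in KO cells (13 UMIs), 2.54-fold lower. In shallow barcodes it was at 9.54 CPM (227 UMIs) and 3.22 CPM (68 UMIs), 2.96-fold lower (2.25 to 3.94). It was lower by at least 1.5-fold in 6 of 6 depth bands, with folds from 1.72 to 3.43. The other angiomotins had the same direction, AMOTL1 at 28.0 CPM in WT and 12.9 CPM in KO cells (33.8 and 16.9 CPM in shallow barcodes). AMOT, named after its values were seen and below the mean of 5 CPM used for counting, was at 7.10 and 2.52 CPM in cells and 6.31 and 3.41 CPM in shallow barcodes.

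LATS2 (chr13:20973036-21061586), a Hippo kinase that phosphorylates YAP1 and is itself induced by it, was at 19.998 CPM in WT (93 UMIs) and 13.2 CPM in KO cells (47 UMIs), 1.52-fold lower. In shallow barcodes it was at 16.4 and 13.2 CPM, a log2 ratio of -0.31 (-0.54 to -0.09) that lies inside 1.5-fold. Its paralogue LATS1 was at 12.04 and 8.97 CPM in cells and 13.5 and 9.06 CPM in shallow barcodes.

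**Figure D3:**
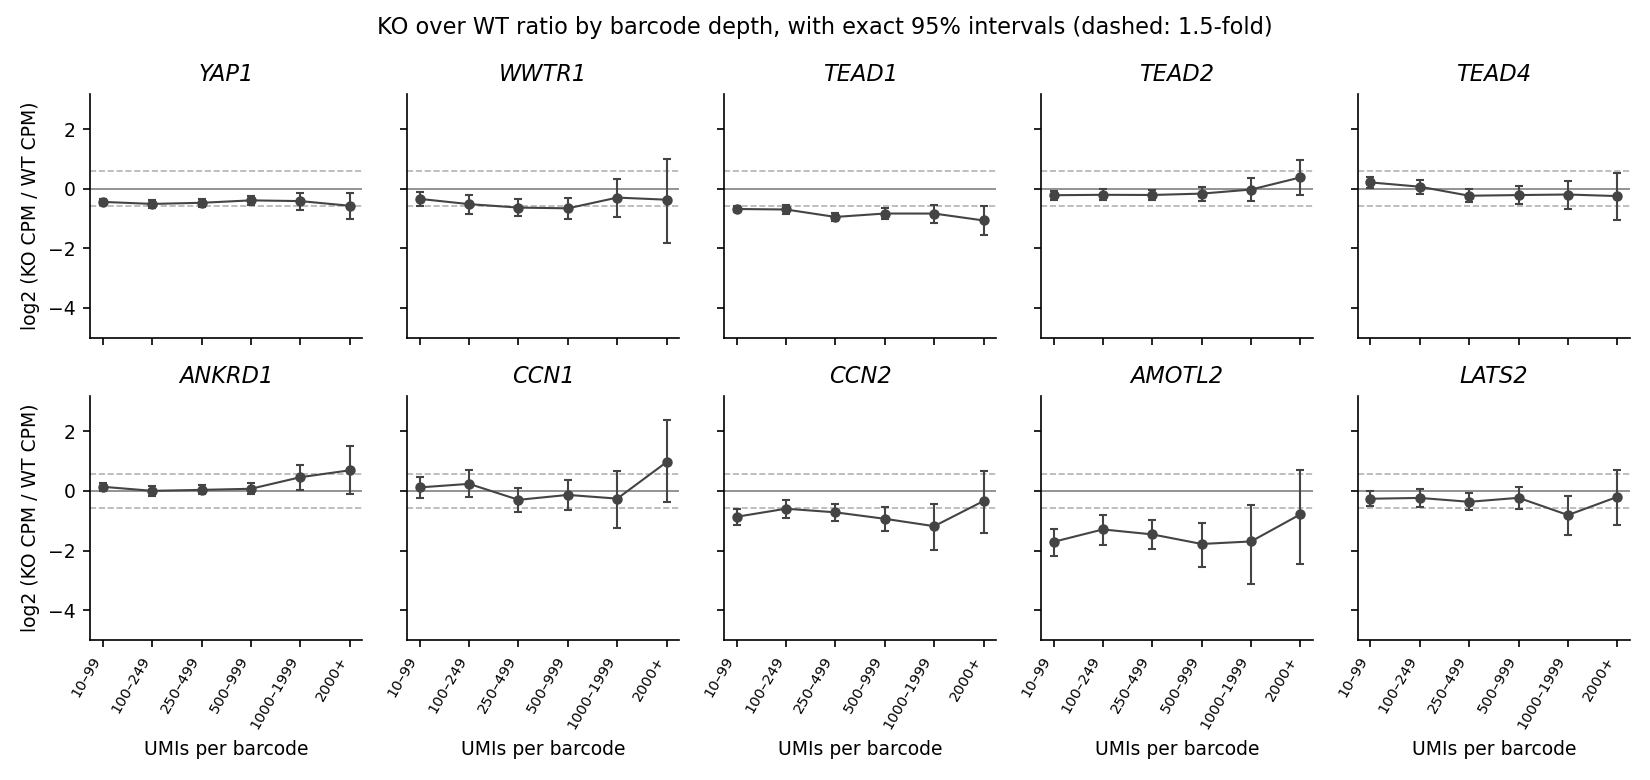
Log2 ratio of KO over WT level (y axis) for each of the 10 genes in 6 bands of UMIs per barcode (x axis); bars are exact 95% intervals and dashed lines mark 1.5-fold. TEAD1 and AMOTL2 lie below the lower dashed line in 6 of 6 bands, CCN2 in 5, and ANKRD1 lies at or above 0 in 6.

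Markers of other lineages moved with genotype. In both classes 7 of 7 neuroectoderm markers measured were lower in KO by 1.5-fold or more, and their list summed to 207 CPM in WT and 36.7 CPM in KO cells. Over all genes 13.0% were lower by this fold in cells and 10.1% in shallow barcodes. The 2 primitive streak markers measured, EOMES and MIXL1, were also lower, and that list summed to 39.1 and 16.0 CPM, with MESP1 at 0 in WT and SOX17 and GATA6 at 0 in KO cells. Among cells, 26.2% had a UMI of either list in WT and 6.78% in KO, and among shallow barcodes 10.6% and 2.48%. With those barcodes left out, the log2 ratios in cells were -0.96 for TEAD1, -0.80 for CCN2, -0.98 for AMOTL2 (interval -2.11 to 0.08) and -0.42 for LATS2. In shallow barcodes they were -0.89 for TEAD1, -0.81 for CCN2, -1.55 for AMOTL2 and -0.62 for WWTR1. That leaves 3 of the 10 genes lower by 1.5-fold in cells, beside 11.5% of all genes at this setting, and 4 in shallow barcodes, beside 9.65%. A barcode of this depth can belong to such a cell without a UMI of its markers, and that part was not tested. Amnion and trophoblast markers summed to 15.5 CPM in WT and 10.4 CPM in KO cells, with 1 of 9 at 5 CPM or more and ISL1 at 0 in the cells of both libraries.

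The wider pathway did not move as a block. Of 44 Hippo and YAP regulators listed, 41 were found and 34 had a mean of at least 5 CPM in cells. AMOTL1 and DCHS1 were at least 1.5-fold lower in KO and LLGL1 was higher, beside 13.0% and 3.94% of all genes. The median log2 ratio was -0.13 beside -0.14 for all genes. In shallow barcodes 4 of 35 were lower (AMOTL1, VGLL3, DCHS1 and FRMD6) and 1 higher (LLGL1), with a median of -0.24 beside -0.15. Over all genes 10.1% were lower and 2.79% higher in that class. DCHS1, VGLL3 and FRMD6 are named after their values were seen. In WT and KO cells the kinase STK4 was at 68.2 and 65.0 CPM and its scaffold SAV1 at 74.8 and 67.3 CPM. The upstream NF2 was at 16.8 and 18.5 CPM there, and each of these genes lay inside 1.5-fold. The kinase LATS2 was just past 1.5-fold in cells, at 1.52-fold, and inside it in shallow barcodes, at 1.24-fold. LLGL1, a polarity scaffold, was at 7.36 CPM in WT and 14.2 CPM in KO shallow barcodes. FAT1, an atypical cadherin upstream of the pathway, was at 35.7 and 25.6 CPM, MOB1B, a LATS activator, at 16.4 and 11.7 CPM, and STRN3, a phosphatase subunit, at 26.9 and 23.7 CPM.

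Other published YAP targets were mixed. Of 17 listed, 9 had a mean of at least 5 CPM in cells, of which CCDC80 and FJX1 were lower and IGFBP3 was higher, beside 13.0% and 3.94% of all genes, and the median log2 ratio was -0.11. In shallow barcodes 1 of 10 was lower (CCDC80) and 0 were higher, beside 10.1% and 2.79% of all genes. CCDC80 was at 19.6 CPM in WT and 3.92 CPM in KO cells, and at 26.2 and 6.88 CPM in shallow barcodes. GADD45A was at 20.9 and 17.7 CPM, ASAP1 at 41.5 and 36.7 CPM, and PTPN14, which stands in this list and that of the regulators, at 50.7 and 47.1 CPM in WT and KO cells. FJX1 and IGFBP3 are named after their values were seen.

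Several of the members are also induced by dissociation, serum and actin signals, so genes of those responses were counted too. Of 9 immediate early genes measured in cells, ZFP36L1 was lower (168 and 111 CPM) and JUN higher (7.31 and 11.2 CPM, interval of the log2 ratio -0.08 to 1.32). In shallow barcodes ZFP36L1 was again lower and EGR1 higher, at 6.77 CPM in WT and 12.1 CPM in KO. JUND, SRF, ATF3, KLF6 and IER2 had log2 ratios between -0.54 and 0.02 in cells. Of 16 actin and serum response factor targets, ACTB, the cytoplasmic beta-actin gene, was higher, at 1662 CPM in WT and 3355 CPM in KO cells. In this list 0 were lower by 1.5-fold. Beside both lists, 13.0% of all genes were lower and 3.94% higher in cells, and 10.1% and 2.79% in shallow barcodes. MYL9, ACTG1, CALD1 and TPM2 had log2 ratios from -0.46 to -0.30, and FHL2 was at 20.6 and 28.3 CPM.

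Within each library, ANKRD1 and CCN2 were lower in barcodes of low mitochondrial share, and so was CCN1 in WT, with 1 interval for CCN2 that reached above 0. In barcodes with at most 2% mitochondrial UMIs, ANKRD1 was at 10.1 CPM in WT cells, against 30.9 CPM in cells with 2 to 10%, which is 3.05-fold lower (1.70 to 5.93). In KO cells the 2 values were 16.0 and 47.2 CPM. Shallow barcodes gave 21.3 and 56.1 CPM in WT and 31.1 and 57.5 CPM in KO. This contrast was added after the data were seen.

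CCN2 showed the same pattern, at 7.80 and 22.7 CPM in WT cells and 1.23 and 13.8 CPM in KO cells, of which 1.23 CPM is from 1 UMI. In shallow barcodes CCN2 was at 3.55 and 21.1 CPM in WT and at 5.19 and 11.96 CPM in KO, where the interval of the log2 ratio reached 0.04. The low-share value there is from 5 UMIs in each library. CCN1 was at 2.34 and 8.51 CPM in WT cells and at 4.92 and 9.37 CPM in KO cells, where the interval included 0. In WT shallow barcodes CCN1 was at 2.13 and 8.85 CPM. The low-share CCN1 values in WT are from 3 UMIs in each class. In KO shallow barcodes CCN1 was at 5.19 and 7.25 CPM, inside 1.5-fold and again with an interval that included 0.

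TEAD4 and YAP1 were higher in the low-share barcodes in some of the comparisons. TEAD4 was at 41.8 against 20.4 CPM in KO cells, a log2 ratio of 1.04 (0.37 to 1.70), and at 34.8 against 25.4 CPM in WT shallow barcodes, where the interval began just above 0. YAP1 was at 84.9 against 60.7 CPM in KO cells, a log2 ratio of 0.48 (0.05 to 0.91), and at 104 against 85.4 CPM in WT cells, where the interval included 0. The other comparisons had intervals that included 0. TEAD4 was at 35.1 against 24.9 CPM in WT cells but at 19.7 against 22.8 CPM in KO shallow barcodes. YAP1 was at 75.8 against 62.2 CPM in KO shallow barcodes but at 82.4 against 85.2 CPM in WT ones. TEAD1 was at 95.9 and 92.99 CPM in WT cells.

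In the low-share barcodes 5 of the 10 genes were at least 1.5-fold lower in WT cells (ANKRD1, CCN1, CCN2, AMOTL2 and LATS2), beside 26.4% of all genes, and 4 in KO cells, beside 22.5%. In shallow barcodes 4 were lower in WT (ANKRD1, CCN1, CCN2 and AMOTL2), beside 17.1%, and 3 in KO (ANKRD1, CCN2 and AMOTL2), beside 20.1%. Neither YAP1, WWTR1 nor any TEAD was among them in any of the 4 comparisons. The interval of the log2 ratio lay below 0 for only 3 of the 5 in WT cells and 2 of the 4 in KO cells. It did so for 3 of the 4 in WT shallow barcodes and 1 of the 3 in KO ones. The intervals of AMOTL2 and LATS2 included 0 in every comparison, and AMOTL2 had 2 UMIs in low-share KO shallow barcodes. Summed, ANKRD1, CCN1 and CCN2 were lower in the low-share barcodes by 3.06-fold in WT cells, 3.18-fold in KO cells, 3.18-fold in WT shallow barcodes and 1.85-fold in KO shallow barcodes. Such barcodes made up 26.7% of WT and 22.1% of KO cells but 4.88% and 3.84% of shallow barcodes. What these barcodes are was not tested.

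**Figure D4:**
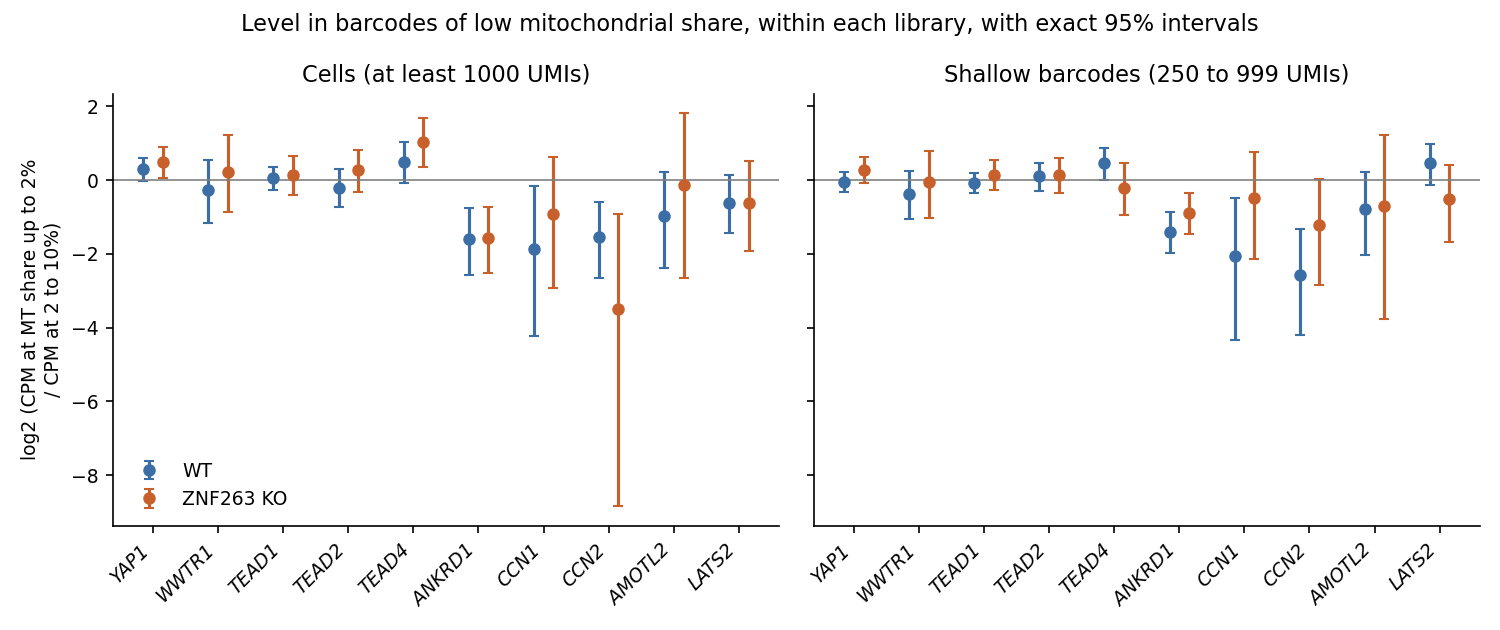
Log2 ratio of the level in barcodes with at most 2% mitochondrial UMIs over that in barcodes with 2 to 10% (y axis) for each of the 10 genes (x axis), within WT (blue) and KO (orange); bars are exact 95% intervals. ANKRD1 lies below 0 in all 4 comparisons, CCN2 does so with its interval in 3 of them, and TEAD1 lies near 0 in each.

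ANKRD1 also differed between the barcode classes. Its level in cells was below that in shallow barcodes in both libraries, by 2.11-fold in WT (1.75 to 2.57) and 1.52-fold in KO (1.27 to 1.84). ANKRD1 was the 1 gene of the 10 that was at least 1.5-fold lower in cells, beside 1.05% of all genes in WT and 1.57% in KO. YAP1 and TEAD1 differed between the classes by log2 0.07 or less in either library. By depth, ANKRD1 in WT ran between 47.3 and 54.5 CPM in the 4 bands below 1000 UMIs and was at 29.0 CPM from 1000 to under 2000 UMIs and 17.6 CPM at 2000 or more. In KO these values were 48.7 to 57.4, 39.9 and 28.5 CPM. At a mitochondrial share of 5 to 10%, ANKRD1 was at 25.5 CPM in WT cells and 54.2 CPM in WT shallow barcodes, and at 36.3 and 58.6 CPM in KO. At 2 to 5% the WT values were 38.3 and 57.1 CPM, whereas the KO cells were higher, at 71.1 against 56.2 CPM.

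Barcodes with 2 or more UMIs of ANKRD1 or CCN2 were more frequent in shallow barcodes than depth gave, although most barcodes with either gene held 1 UMI. ANKRD1 was seen with 1 UMI in 966 WT shallow barcodes and CCN2 in 450. In WT shallow barcodes 130 barcodes had 2 or more ANKRD1 UMIs where the level and each barcode's depth gave 16.0, a ratio of 8.11 (6.78 to 9.63). In KO the numbers were 100 and 15.2, a ratio of 6.59 (5.36 to 8.01). Cells gave 20 against 2.78 in WT and 21 against 4.25 in KO. For CCN2 the ratio was 5.32 (2.75 to 9.29) in WT shallow barcodes and 7.52 (2.44 to 17.5) in KO shallow barcodes, from 12 and 5 barcodes. In cells 8 WT barcodes had 2 or more CCN2 UMIs where 1.46 were expected, and 0 KO barcodes did where 0.32 were expected. The intervals of levels and of their ratios treat UMIs as independent. For ANKRD1 and CCN2 they can therefore be too narrow, and by how much was not tested.

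For YAP1 the same ratio was 1.46 in both libraries and for TEAD1 1.69 in WT and 1.96 in KO in shallow barcodes, nearer to what depth alone would give. TEAD4, with 3.64 in WT and 3.21 in KO on 14 and 8 barcodes, lay between. Sequencing errors in UMIs can also give 2 UMIs from 1 transcript, and their part was not tested.

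The 3 targets were also found together in the same barcodes more often than the shares of barcodes with each would give. With cells thinned to 1000 UMIs, which left out 0 cells, 10 WT cells had at least 2 of ANKRD1, CCN1 and CCN2 where independence gave 1.93, a ratio of 5.18 (2.48 to 9.52). In KO cells the numbers were 6 and 1.16, also a ratio of 5.18 (1.90 to 11.3). Shallow barcodes thinned to 250 UMIs gave 15 against 5.53 in WT, a ratio of 2.71. In KO they gave 11 against 3.17, a ratio of 3.47 (1.73 to 6.21). A second thinning draw gave 2.19 for KO shallow barcodes, with an interval from 0.88 to 4.51 that includes 1.

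Without thinning, and with the expected number taken from each gene's UMI level and each barcode's own depth, more barcodes entered. Several UMIs of a gene in the same barcode raise this expected number. WT shallow barcodes then gave 47 against 18.8, a ratio of 2.499 (1.84 to 3.32), and KO 30 against 11.1, a ratio of 2.71 (1.83 to 3.87). Cells gave 1.95 (1.04 to 3.34) in WT and 2.12 (1.02 to 3.90) in KO. The intervals of the 2 genotypes overlap in every comparison, so no difference in co-occurrence between WT and KO was detectable at this depth.

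The pair of ANKRD1 and CCN2 gave most of these barcodes, with 34 in WT shallow barcodes where 11.9 were expected and 21 in KO where 6.32 were expected. ANKRD1 and CCN1 were together in 11 shallow barcodes of each library, where 5.07 and 3.96 were expected. All 3 genes were seen in 2 WT and 2 KO cells and in 1 WT and 3 KO shallow barcodes.

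A background over all gene pairs was computed for thinned barcodes, so the thinned values of ANKRD1 and CCN2 stand beside it. That pair shared 8 WT cells where 1.06 were expected and 3 KO cells where 0.44 were, and 11 WT shallow barcodes where 3.60 were expected and 8 KO ones where 1.88 were. Among all pairs with an expected number from 1 to 5, the share with at least 1.5 times that number was 21.9% in WT cells and 21.8% in KO cells, and 21.7% and 21.8% in shallow barcodes. The expected number of 0.44 in KO cells lies below this range, so the KO cell share is no background for that value. With an expected number of at least 5, which no thinned pair of the 3 targets reached, it was 4.08% and 3.97% in cells and 4.47% and 4.49% in shallow barcodes. No such background was computed for the counts without thinning.

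**Figure D5:**
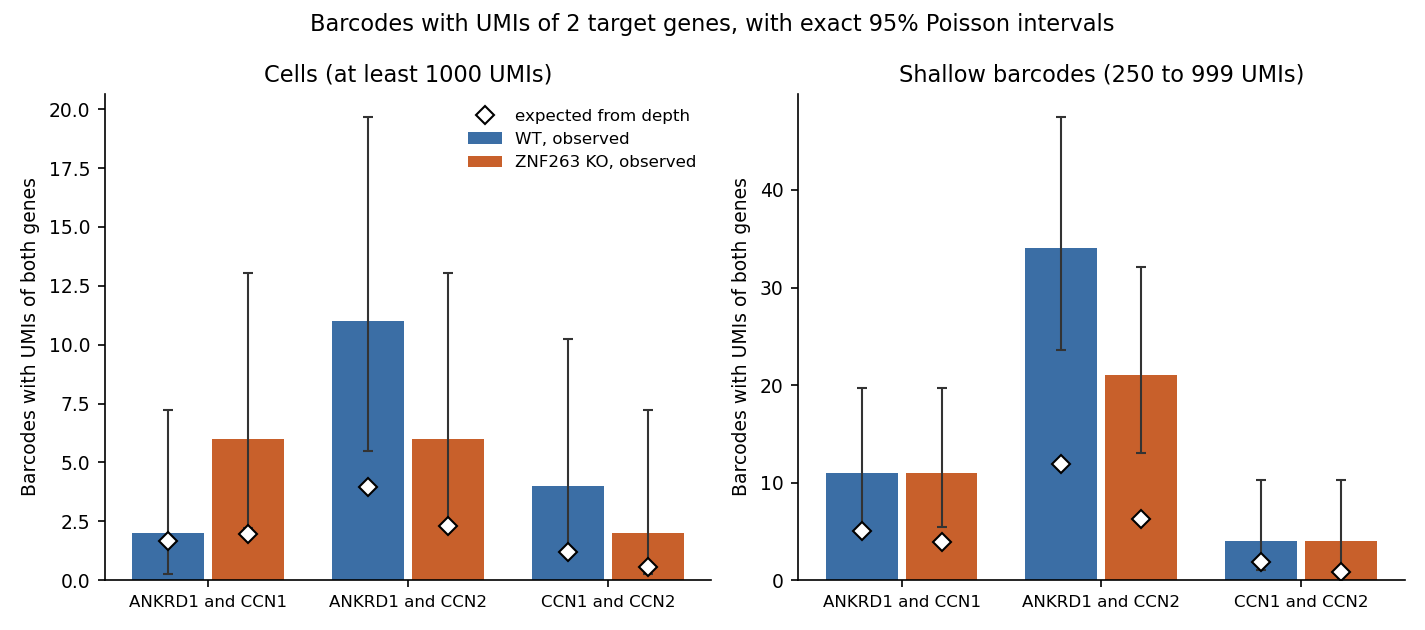
Number of barcodes with UMIs of both genes of a pair (bars, y axis) in WT (blue) and KO (orange), without thinning; white diamonds are the numbers expected from each barcode's depth and lines are exact 95% Poisson intervals. ANKRD1 and CCN2 were together in 34 WT and 21 KO shallow barcodes, against 11.9 and 6.32 expected.

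Of the 45 pairs that the 10 genes form, taken without thinning, those with an interval above 1 were pairs of ANKRD1, CCN1 and CCN2 in both libraries and both classes. There were 1 in WT cells, 1 in KO cells, 2 in WT shallow barcodes and 3 in KO shallow barcodes. Over all 45 pairs the median ratio ran from 0.91 to 1.13. YAP1 and ANKRD1 shared 34 WT shallow barcodes where 49.9 were expected, and 22 KO shallow barcodes where 33.8 were expected. These and 4 other pairs had an interval below 1, and all of them include ANKRD1. ANKRD1 and LATS2 shared 3 WT shallow barcodes where 9.84 were expected. In KO cells ANKRD1 was together with TEAD1 in 4 where 11.1 were expected, with TEAD2 in 3 where 9.34 were and with TEAD4 in 1 where 5.79 were. No pair in WT cells had an interval below 1. The expected number comes from a gene's UMI level and each barcode's depth, so several UMIs in the same barcode raise it. ANKRD1 had 130 UMIs in 88 KO cells. Ratios below 1 with ANKRD1 can therefore be too low, and by how much was not tested.

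In thinned WT shallow barcodes with a UMI of a target, YAP1 was at 83.7 CPM, against 83.6 CPM in those without, a log2 ratio of 0.00 (-0.66 to 0.59), and TEAD1 at 87.4 against 91.2 CPM. WWTR1 was at 40.0 against 18.9 CPM there, from 11 UMIs, and at 9.35 against 13.0 CPM in KO, from 2 UMIs. In KO shallow barcodes YAP1 was at 42.1 against 62.2 CPM, from 9 UMIs, a log2 ratio of -0.57 (-1.70 to 0.37). TEAD4 was at 10.9 against 28.3 CPM in WT and 9.35 against 23.4 CPM in KO shallow barcodes, from 3 and 2 UMIs. TEAD2 was at 58.2 against 42.1 CPM in WT and 28.0 against 36.4 CPM in KO ones. The intervals of TEAD2 and TEAD4 include 0.

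ACTC1 and TPM1, outside the set, were higher in barcodes with a UMI of ANKRD1, CCN1 or CCN2 in both libraries and both classes. Of 2617 genes with at least 50 CPM, the 8 with the largest difference between thinned cells with and without a target UMI, taking the lower of the 2 libraries, were ACTC1, SPCS3, ADD3, CDC40, PALM2AKAP2, TPM1, PRTG and EXOSC4. ACTC1, the cardiac alpha-actin gene, led the ranking. It was at 224 CPM in WT cells with a target UMI and 54.4 CPM in those without, and at 489 and 63.9 CPM in KO cells. Before thinning, the highest ACTC1 count in a single cell was 19 UMIs in WT and 22 in KO. The cells chose this ranking, so the shallow barcodes are the set it did not use.

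There ACTC1 was at 211 CPM in WT barcodes with a target UMI and 72.8 CPM in those without, a log2 ratio of 1.54 (1.13 to 1.92), and at 374 and 89.1 CPM in KO, a log2 ratio of 2.07 (1.72 to 2.40). TPM1, an actin-binding tropomyosin, had log2 ratios of 0.47 (0.26 to 0.67) in WT and 0.66 (0.47 to 0.85) in KO shallow barcodes. The intervals of the other 6 genes included 0 there in both libraries. ANKRD1 and ACTC1 were together in 114 WT shallow barcodes where depth gave 44.2, a ratio of 2.58 (2.13 to 3.10), and in 124 KO shallow barcodes where it gave 49.8, a ratio of 2.49 (2.07 to 2.97). CCN2 and ACTC1 were together in 30 WT shallow barcodes where 16.6 were expected, a ratio of 1.80 (1.22 to 2.57), and in 18 KO ones where 10.5 were expected, a ratio of 1.72 (1.02 to 2.72). CCN1 and ACTC1 shared 8 WT and 9 KO shallow barcodes, where 7.06 and 6.56 were expected, with intervals that include 1. In cells the ratios of ANKRD1 and ACTC1 were 1.25 in WT and 1.40 in KO. The intervals of all 3 pairs with ACTC1 include 1 there in both libraries. ANKRD1 and TPM1 had ratios of 1.17 (1.04 to 1.30) in WT and 1.18 (1.07 to 1.31) in KO shallow barcodes, but 0.78 and 0.81 in cells. CCN2 and TPM1 had 1.29 (1.08 to 1.52) in WT shallow barcodes and 1.09 (0.85 to 1.37) in KO ones. The intervals of CCN1 and TPM1 in shallow barcodes, and of every pair with TPM1 in cells, include 1. These expected numbers come from UMI levels, so cells with many UMIs raise them, up to 19 of ACTC1 in WT and 22 in KO. The ratios in cells can therefore be too low and do not show that co-occurrence is absent there.

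ACTC1 itself was at 66.7 CPM in WT and 76.0 CPM in KO cells, and at 75.0 and 92.9 CPM in shallow barcodes. TPM1 was at 563 and 674 CPM in cells and at 553 and 708 CPM in shallow barcodes. Both, like ANKRD1 and unlike CCN2 and AMOTL2, were thus not lower in KO in either class.

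RNA free in solution can place UMIs in barcodes of any depth. The share of cells with a UMI, thinned to 1000 UMIs, was therefore set beside the share that the summed profile of barcodes with 10 to 99 UMIs would give. That share lay inside the exact interval of the measured one for 8 of the 10 genes in WT cells and 9 in KO cells, and for 7 in WT and 6 in KO shallow barcodes thinned to 250 UMIs. The share of cells with ANKRD1 was 2.21% in WT and 2.76% in KO (2.96% and 3.85% without thinning), below the 4.62% and 5.08% that the profile would give, so it is not read here as a share of cells expressing the gene. In WT shallow barcodes the share with ANKRD1 was 1.27% (1.18% to 1.36%), whose interval lies just above the profile's share, and in KO it was 1.26%, beside 1.30% from the profile. Barcodes of 10 to 99 UMIs can themselves hold cells of low yield, and the part of free RNA was not tested. The numbers of barcodes with 2 or more UMIs and of shared barcodes above are measured against depth and the level within a class.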

How the data were processed

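Single-cell RNA of H1 cells was measured in 1 WT and 1 KO library. Per the labels' protocols, dissociated cells and barcoded beads were placed in microwells and polyadenylated RNA was turned into libraries with Tn5. What the authors deposited are raw UMI counts for each gene in each barcode, 60578040 UMIs over 842407 WT barcodes and 54559376 over 841049 KO barcodes. Per the submitters' processing notes the build was hg38 and the tools included featureCounts 2.0.1 and Subread, STAR 2.7.10a, and UMI-tools 1.1.2. No annotation, strand setting or barcode filter is given in the sources used here. The KO table holds 15 entries beyond its size line, which were used.

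From these counts, UMIs were summed per gene and class and scaled to CPM, with Python 3.11.15, NumPy 2.4.6, SciPy 1.17.1 and pandas 2.3.3. Levels have exact Poisson intervals, ratios exact conditional binomial intervals and shares exact Clopper-Pearson intervals, checked on simulated data. A difference is called past 1.5-fold. Thinning drew each barcode's UMIs at random without replacement. Doublets were not removed; an alternative left out cells over 4 times the median UMI count. Positions and promoters are from RefSeq tables (GRCh38.p14). Of 157 list entries 5 symbols were not found: EGR3, CGA, CSNK1E, and KIBRA and INADL, older names of genes already listed. The named genes of each list are up to 6 of largest absolute log2 ratio at a mean of at least 10 CPM; the 8 genes most like the targets were ranked at 50 CPM or more, without mitochondrial, ribosomal protein and sex-linked marker genes. The 10 genes and all lists were chosen with earlier results of these data known. The alternatives that left out shared barcodes, lineage marker barcodes or the barcode with most ANKRD1 UMIs, and the expected numbers from depth, were chosen after seeing the data. The result of 1 pluripotency marker is not reported here.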

Additional observations from a re-analysis of the deposited data

How the results depend on the processing

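No paired analysis was possible because each genotype has 1 library. Of 100 log2 ratios recomputed for cells under 10 alternatives, 98 moved by less than their counting interval and 0 reversed. The exceptions were ANKRD1 at 0.14 with a minimum of 500 UMIs and CCN1 at 0.97 with a minimum of 2000 UMIs. Of 60 for shallow barcodes 57 stayed, and scaling to the median gene moved YAP1 to -0.32, TEAD1 to -0.78 and ANKRD1 to 0.17. With a minimum of 2000 UMIs, 2 of the 10 genes were at least 1.5-fold lower in KO cells and 2 higher, beside 18.5% and 7.68% of all genes. A mitochondrial limit of 10%, scaling without mitochondrial and ribosomal protein genes and scaling to the median gene each gave 1 higher gene in cells. At these settings, in this order, 4.002%, 5.104% and 6.032% of all genes were at least 1.5-fold higher in KO cells. At a fold of 2, 1 gene was lower in cells and 1 in shallow barcodes. The share of all genes at a fold of 2 was not computed, so these counts have no background. The co-occurrence ratio in WT cells moved to 1.95 when the expected number was taken from UMI levels and each barcode's depth. That number is built from UMIs, 118 of ANKRD1 and 85 of CCN2, and not from cells with a UMI. Such cells numbered 87 and 73 without thinning. How much of the move this gives was not tested. Depth limits CCN1, WWTR1, CCN2 and AMOTL2, with 13 to 85 UMIs per library in cells.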
